A study of Mus musculus with 6 samples.

Results

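Cyclic AMP is the second messenger through which many receptors change the firing, transmitter release and gene expression of sympathetic neurons. Adenylyl cyclases make it, phosphodiesterases break it down, and protein kinase A (PKA) is its best known effector. At rest the PKA regulatory subunits hold the catalytic subunits inactive, cAMP binding releases them, and A-kinase anchoring proteins tether the complex to particular places in the cell. The genes described here are those whose symbol begins with Adcy, Pde or Akap and a number, or with Prkaca, Prkacb or Prkar, on a probe set with exactly 1 gene symbol. They comprised 57 genes on 148 of the 45037 probe sets that are not controls. Of these genes, 40 had a probe set with a mean log2 intensity of 4 or more over the 6 arrays and were tested, among 9955 tested genes in all. The other 17 stayed under that floor and are called dim.

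RNA came from the stellate ganglia, the sympathetic ganglia that supply most sympathetic fibres of the heart, of male C57/Bl6 mice. One group of 3 mice had a sham operation and the other group of 3 had transverse aortic constriction (TAC), a surgical narrowing of the aortic arch that makes the left ventricle pump against a higher pressure. Tissue was taken 8 weeks after surgery, both ganglia of an animal were pooled on 1 Affymetrix array, and neither group carried a transgene or received a drug, per the labels. No age of the mice is given in the sources used here. The arrays of each group are named A, B and C. The question was which transcripts of the ganglion differ after lasting pressure overload. All levels are log2 of the deposited intensity. Differences are TAC minus sham in log2 units, with limma's standard error (SE), and a called gene has an adjusted p under 0.05 over all 17550 tested probe sets.

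No member gene was called. Limma's adjusted p was 0.516 or more for every tested member probe set, and over all tested genes the share called was 0%. At an unadjusted p under 0.05 there were 6 of 40 members, or 15%, against 8.76% of all tested genes; 5 were higher and 1 lower, against 5.43% and 3.32%. These 6 were the cyclases Adcy1 and Adcy3, the PKA subunits Prkacb and Prkar1a and the anchoring protein Akap11, with higher means after TAC, and the phosphodiesterase Pde3b, with a lower mean. The count changed with single arrays and with scaling: it was 1 without TAC C, 2 without sham C and 2 with array medians set equal. With the skeletal muscle score of each array as a covariate it was 5, of which Adcy3 and Prkar1a were among the 6. The rest of these were Pde10a, Pde12 and Pde4dip. The shares of all tested genes under these settings are not given here. Whether the changes are particular to the members therefore cannot be read. Differences of the brightest probe sets were small. The largest absolute one, of Pde2a, was -0.34, and 0 members differed by 0.58 or more, as 2.13% of all tested genes did. The median difference over the 40 members was 0.06, against 0.02 over all tested genes, and the median absolute difference was 0.11 in both. Means were higher after TAC for 28 members, or 70%, and lower for 12, where 55% of all tested genes had a higher mean. The 3 TAC arrays lay wholly above the 3 sham arrays for 7 members and wholly below for 4, together 27.5% of the members, against 17.9% of all tested genes (8.78% above and 9.09% below).

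**Figure D1:**
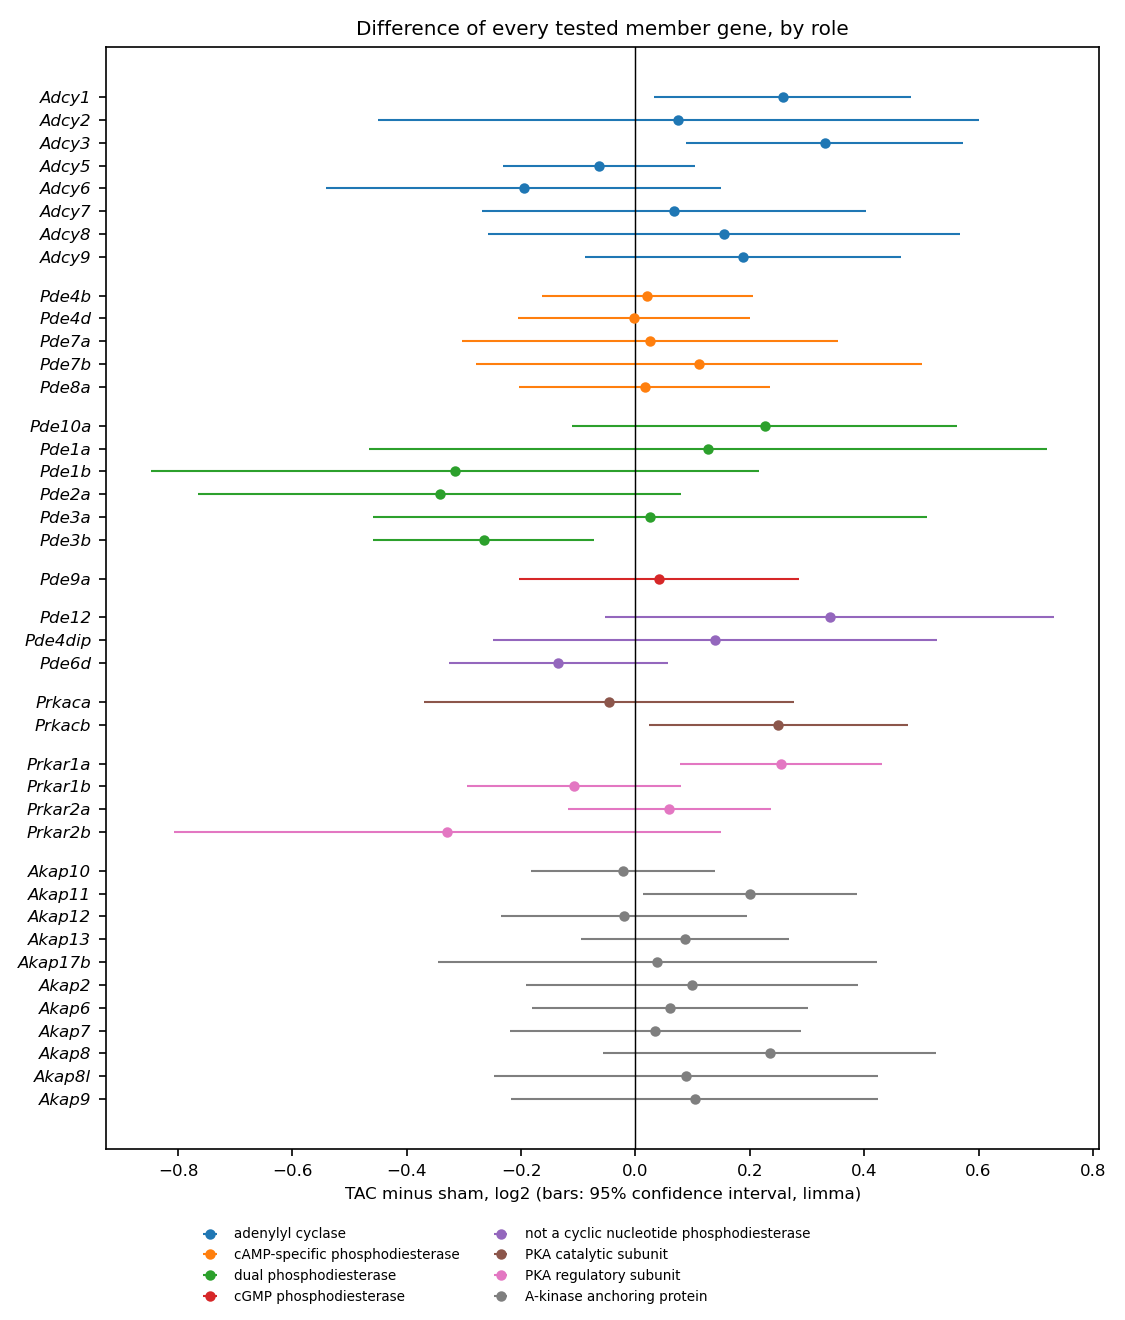
TAC minus sham difference in log2 units of the brightest probe set of each of the 40 tested genes, grouped and coloured by role, with limma's 95% confidence interval. The intervals of Adcy1, Adcy3, Prkacb, Prkar1a and Akap11 lie above 0 and that of Pde3b below 0; the others include 0, and 0 genes passed after adjustment.

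Arrays differed in ways the groups do not describe. Pairwise correlations ran from 0.98 to 0.994, and TAC B had the lowest mean correlation with the others, 0.984. Sham B was the lowest array for 14 of the 40 members and TAC B for 9. Sympathetic neuron markers, of which all 14 with a named probe set were above the floor, had a summed log2 intensity of 16.87 to 16.97 in sham and 16.95 to 16.99 in TAC. The sum for satellite glia and Schwann cells (8 of 8, counted likewise) was 15.11 to 15.17 in sham and 14.73 to 15.10 in TAC, lowest on TAC B. Such sums are of linear intensities over all markers with a named probe set, dim ones included, so the brightest gene weighs most. Here that was Fabp7, at -0.39, while Cdh19 was at 0.31, Pmp22 at 0.10 and Sox10 at 0.07. S100b, Apoe, Kcnj10 and Mbp lay between -0.25 and -0.15. For fibroblasts (7 of 8) the sum was 13.16 to 13.22 and 12.95 to 13.47. Of their tested markers Dcn was at 0.26, and Col1a1, Col1a2, Col3a1, Lum, Pdgfra and Postn lay between -0.60 and -0.08. Sums were 10.13 to 10.33 and 10.10 to 10.30 for macrophages (7 of 9), and 6.34 to 6.46 and 6.47 to 6.92 for endothelium (3 of 7). Mural cells (5 of 7) had 10.93 to 10.99 and 11.03 to 11.51, highest on TAC B. Within each of these lists, too, tested markers differed in sign. For adrenal chromaffin markers (4 of 4), which sympathetic neurons share in part, the sum was 12.58 to 12.64 and 12.88 to 13.06. By gene, Slc18a1 was at 0.50, Chgb at 0.46, Chga at 0.15 and Pnmt at 0.02. Tissue from outside the ganglion was uneven. Skeletal muscle markers (4 of 10) spanned 6.47 to 10.51 in sham and 6.75 to 8.10 in TAC, and red blood cell markers (1 of 2) 4.64 to 6.01 and 3.54 to 4.91. Brown fat markers (5 of 7) spanned 9.62 to 10.97 and 9.72 to 10.38, and white fat markers (3 of 7) 11.08 to 12.99 and 10.64 to 12.36, each highest on sham C and, among TAC arrays, on TAC B. Of the tested brown fat markers, Ucp1, Cidea, Cox7a1 and Cox8b lay between -1.20 and -0.30. Fabp3 was at 0.38, with every TAC array above every sham array. The tested white fat markers Adipoq, Fabp4 and Lpl lay between -0.73 and -0.40. In whole ganglia fewer cells of a type and less RNA per cell cannot be told apart. Except where a measurement is given below, the part of these tissues in the differences was not tested.

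Adenylyl cyclases convert ATP into cAMP and differ in what regulates them. Of 10 cyclase genes, 8 were tested, with 6 higher and 2 lower means after TAC, a median difference of 0.11 and a range of -0.20 to 0.33. Adcy3, a membrane cyclase best known from olfactory neurons and primary cilia, measured 7.81, 7.59 and 7.77 in sham and 8.01, 7.96 and 8.19 in TAC (arrays in the order A, B, C, here and below). Every TAC array exceeded every sham array, by at least 0.15. Its difference was 0.33 (SE 0.10), or 1.26-fold, with an unadjusted p of 0.015 and an adjusted p of 0.516 by limma. The other tested probe sets of Adcy3 did not share the separation, one at -0.03 (SE 0.14) and one at 0.35 (SE 0.22), the latter highest on TAC B at 6.34. With the probe sets of Adcy3 averaged the difference was 0.22, and without TAC C its unadjusted p by limma was no longer under 0.05.

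Adcy1, a cyclase stimulated by calcium and calmodulin and abundant in the nervous system, measured 8.31, 8.46 and 8.23 on the sham arrays and 8.50, 8.61 and 8.65 on the TAC arrays. The groups were apart by only 0.04, and the difference was 0.26 (SE 0.09) with a limma unadjusted p of 0.031. With the muscle score as a covariate it was 0.17 (limma unadjusted p = 0.095). Adcy8, also stimulated by calcium and calmodulin, measured 6.43, 6.13 and 6.08 in sham and 6.19, 6.70 and 6.21 in TAC, so that only TAC B stood above the sham range.

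Adcy9, a widely expressed cyclase that is insensitive to forskolin or nearly so, measured 7.75, 7.56 and 7.62 in sham and 7.68, 7.79 and 8.03 in TAC, with a difference of 0.19 (SE 0.12). Its groups overlapped, and without TAC C the difference was 0.09. All 4 of its tested probe sets had higher means after TAC, at 0.19, 0.08, 0.21 and 0.19, and in the third of these the groups did not overlap.

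The calcium-inhibited cyclases Adcy5 and Adcy6, the main forms of the heart, had lower means. Adcy6 measured 7.58, 7.20 and 7.24 in sham and 7.21, 6.94 and 7.29 in TAC, a difference of -0.20 (SE 0.14) with groups that overlapped. With sham A left out it was -0.08, and with TAC B left out -0.09. Adcy5 measured 5.24, 5.18 and 5.19 in sham and 5.11, 5.16 and 5.15 in TAC. Its TAC arrays lay below its sham arrays, but the difference was only -0.06 (SE 0.07).

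Adcy2 and Adcy7, both cyclases that G protein beta-gamma subunits can stimulate, overlapped between groups. Adcy2 measured 6.39, 6.01 and 6.25 in sham and 6.57, 5.82 and 6.49 in TAC. Adcy7, best known from blood cells, measured 7.61, 7.29 and 7.59 in sham and 7.76, 7.37 and 7.57 in TAC. Both were lowest on array B within each group. Adcy4 and the soluble, bicarbonate-stimulated cyclase Adcy10 were dim.

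**Figure D2:**
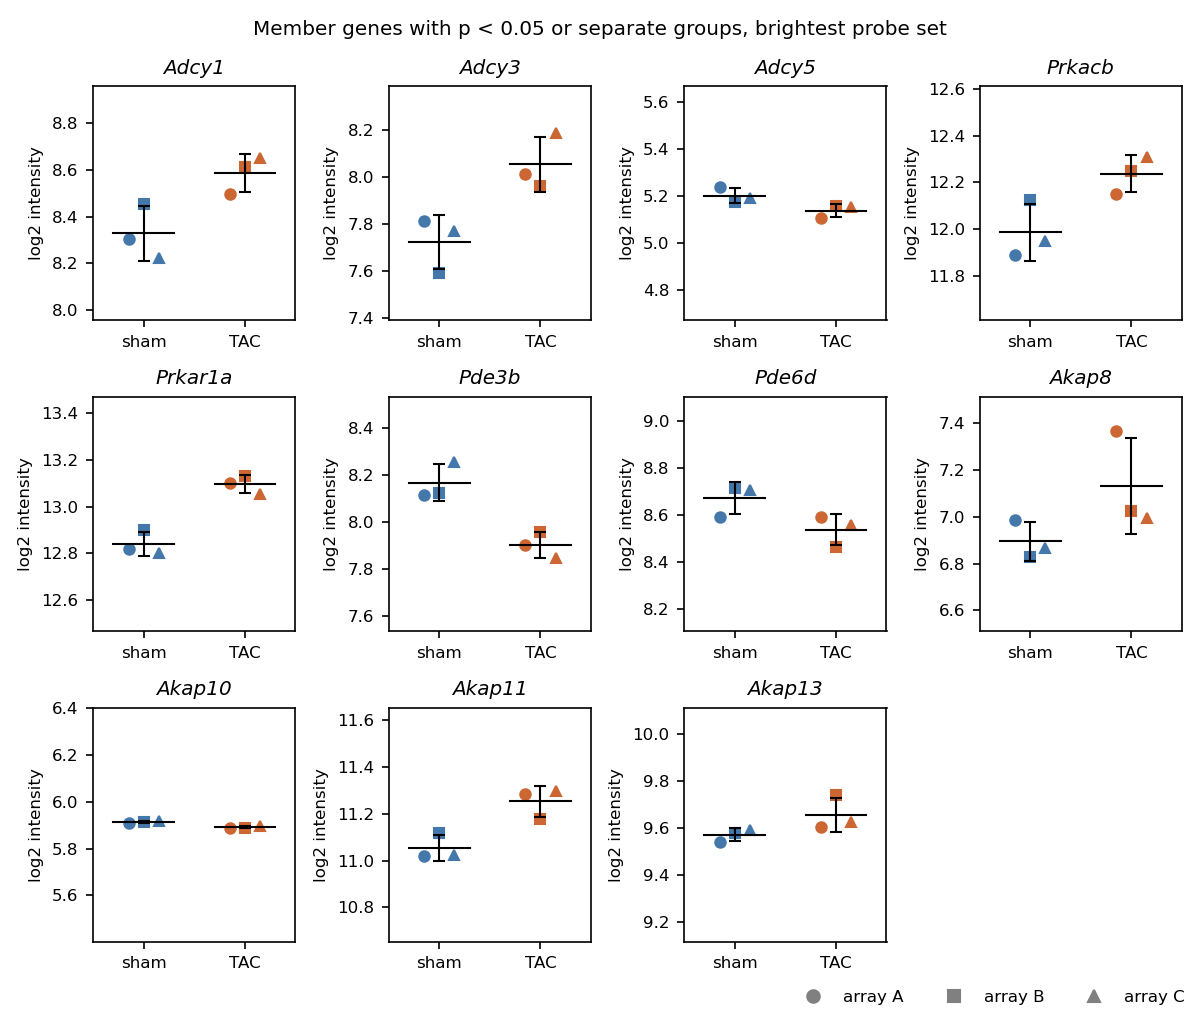
Log2 intensity on each array, as circles, squares and triangles for arrays A, B and C, with group means and SD bars (3 arrays per group), for the 11 genes with an unadjusted p under 0.05 or groups that did not overlap. Every panel spans 1 log2 unit; the gap between groups is widest for Pde3b, Prkar1a and Adcy3 and is hardly visible for Pde6d, Akap8, Akap10 and Akap13.

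PKA is made of catalytic and regulatory subunits, and all 6 of its genes were tested. The catalytic subunits phosphorylate the targets. Prkacb, which encodes the beta catalytic subunit common in neurons, measured 11.89, 12.12 and 11.95 in sham and 12.15, 12.25 and 12.31 in TAC. The TAC arrays lay just above the sham arrays, by 0.03, and the difference was 0.25 (SE 0.09) with a limma unadjusted p of 0.036. With the muscle score as a covariate it was 0.16. The second tested probe set measured 5.03, 5.47 and 4.22 in sham and 5.69, 6.52 and 6.04 in TAC, a difference of 1.18 (SE 0.35) with a limma unadjusted p of 0.014 and an adjusted p of 0.516. Without TAC B that difference was 0.96, and without sham C 0.84. This dimmer probe set was lowest on sham C and highest on TAC B. Prkaca, the alpha catalytic subunit found in most tissues, measured 12.44, 11.93 and 12.15 in sham and 12.14, 12.11 and 12.13 in TAC. The TAC arrays were almost identical and lay within the sham range, with a difference of -0.05 (SE 0.13), and a second probe set was at 0.11 (SE 0.12).

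The regulatory subunits bind cAMP and come as type I, mostly soluble, and type II, mostly anchored. Prkar1a, the type I alpha subunit whose loss releases PKA activity in many tissues, had the smallest unadjusted p of the members, 0.012 by limma (adjusted p = 0.516). It measured 12.82, 12.90 and 12.80 in sham and 13.10, 13.13 and 13.05 in TAC, so that every TAC array exceeded every sham array by at least 0.15. The means were 12.84 ± 0.05 and 13.10 ± 0.04 (SD, n = 3), a difference of 0.25 (SE 0.07), or 1.19-fold. A second probe set was at 0.20 (SE 0.15) with groups that overlapped. The difference of the brightest probe set lay between 0.24 and 0.28 with any 1 array left out. Its unadjusted p stayed under 0.05 in each of these 6 comparisons, which held for 0 of the other members. The share of all tested genes for which it held is not given here. Whether this is unusual therefore cannot be read. By limma the unadjusted p of Prkar1a was 0.052 with equal array medians and 0.061 with its probe sets averaged. Of 18 alternatives in all, it was under 0.05 in 15 for Prkar1a and in 17 for Adcy3.

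Prkar1b, the type I beta subunit restricted largely to neurons, measured 13.87, 13.74 and 13.86 in sham and 13.69, 13.68 and 13.77 in TAC, a difference of -0.11 (SE 0.08). Its 4 other probe sets were at -0.11, -0.01, 0.06 and 0.00, and all its groups overlapped. Within an array the difference between the 2 genes does not depend on how the array was scaled. Prkar1a minus Prkar1b was -1.05, -0.84 and -1.06 on the sham arrays and -0.59, -0.55 and -0.72 on the TAC arrays, where only the shift between groups, 0.36, can be read and not which probe set was brighter. This shift gave an exact two-sided permutation p of 0.1, the smallest that 3 arrays against 3 allow. Adjusted over the 3 subunit pairs examined it was 0.3. The pairs were chosen after the values were seen. For Prkacb minus Prkaca the shift was 0.30 and for Prkar2a minus Prkar2b 0.39, and in both the groups overlapped.

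Prkar2a, the type II alpha subunit, measured 9.93, 9.85 and 9.87 in sham and 9.98, 9.88 and 9.96 in TAC, a difference of 0.06 (SE 0.07). Its 2 other tested probe sets had separate groups, at 0.22 (SE 0.08) and, near the floor, at 0.61 (SE 0.21). The first measured 9.34, 9.33 and 9.23 in sham and 9.53, 9.45 and 9.59 in TAC. The second measured 4.35, 4.26 and 4.13 in sham and 4.49, 5.31 and 4.76 in TAC, and without TAC B it was at 0.38. The unadjusted p by limma was 0.028 for the first and 0.026 for the second, both with an adjusted p of 0.542. That of the first was 0.090 without sham C, 0.068 without TAC A and 0.091 without TAC C. That of the second was 0.060 without sham B and 0.078 without sham C. With the other arrays left out in turn, each stayed under 0.05. The brightest probe set did not separate the groups, so the 3 probe sets of Prkar2a disagree on the size of the difference.

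**Figure D3:**
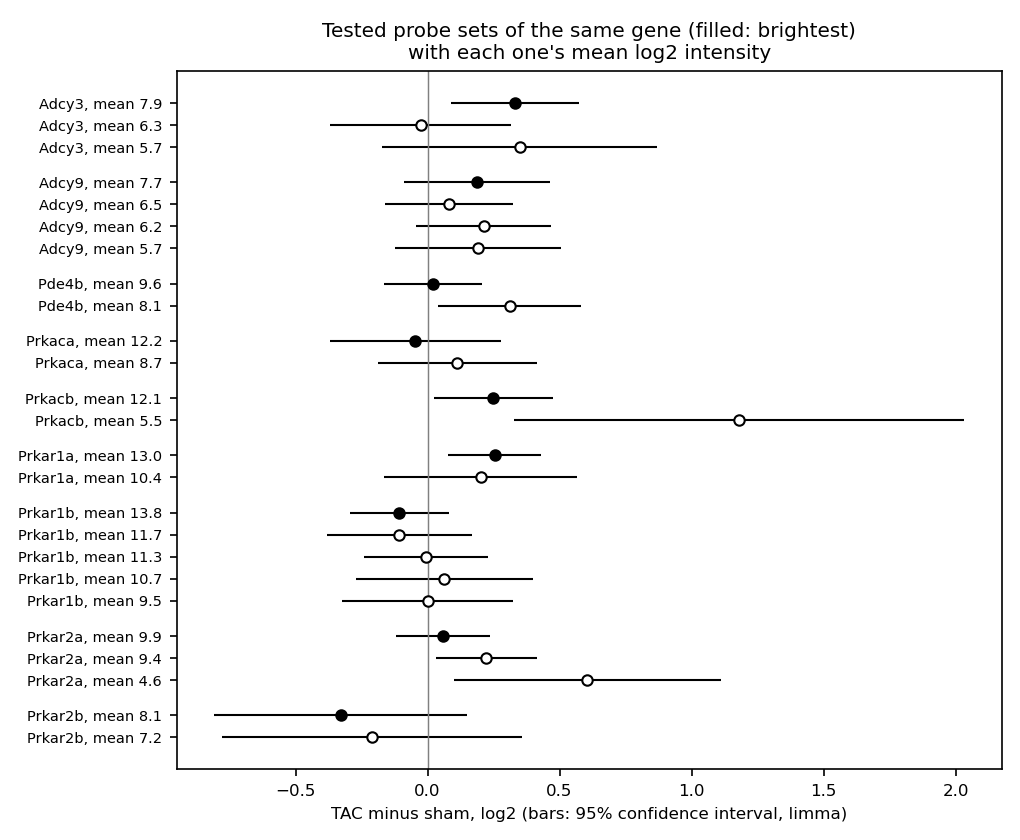
TAC minus sham difference in log2 units, with limma's 95% confidence interval, of each tested probe set of 9 genes; filled points are the brightest probe set and labels give each probe set's mean log2 intensity. All probe sets of Prkacb, Prkar1a, Prkar2a and Adcy9 lie above 0, while those of Adcy3, Prkaca and Prkar1b fall on both sides.

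Prkar2b, the type II beta subunit abundant in brain and fat, measured 8.25, 7.95 and 8.70 in sham and 8.11, 8.02 and 7.79 in TAC. Sham C stood apart from the next array, sham A, and the difference was -0.33 (SE 0.20). The fat transcripts Ucp1 and Fabp4 were also highest on sham C, at 8.53 and 12.63, against 3.98 and 10.73 on sham A. They were next highest on TAC B, at 6.82 and 12.03, where Prkar2b was within the range of the other arrays. The brown fat marker Fabp3 was instead highest on TAC B, at 9.21, against 8.74 on sham C. The difference of Prkar2b was -0.50 without sham B, its lowest sham array. Without sham C it was -0.13, and with the brown fat score as a covariate -0.21. With the skeletal muscle score it was -0.11. A second probe set was likewise highest on sham C, at 7.83 against at most 7.18 on the other arrays.

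Phosphodiesterases end the cAMP signal, and their families differ in substrate. The dual families, which can hydrolyse cAMP and cGMP, had 6 of 8 genes tested, with 3 higher and 3 lower means and a median difference of -0.12. Pde3b, a phosphodiesterase inhibited by cGMP and prominent in fat and liver, measured 8.12, 8.12 and 8.26 in sham and 7.90, 7.96 and 7.84 in TAC. Every TAC array lay below every sham array, by at least 0.16. The difference was -0.26 (SE 0.08), or 1.20-fold lower after TAC, with a limma unadjusted p of 0.015 and an adjusted p of 0.516. Sham C, the array with the highest fat marker sums, was also the highest for Pde3b. With the brown fat score as a covariate the difference was -0.23. It was -0.22 without sham C, -0.24 without TAC C and -0.24 once the muscle score was a covariate, each with a limma unadjusted p of 0.051 to 0.053. The part of fat RNA in the Pde3b difference was not tested.

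**Figure D4:**
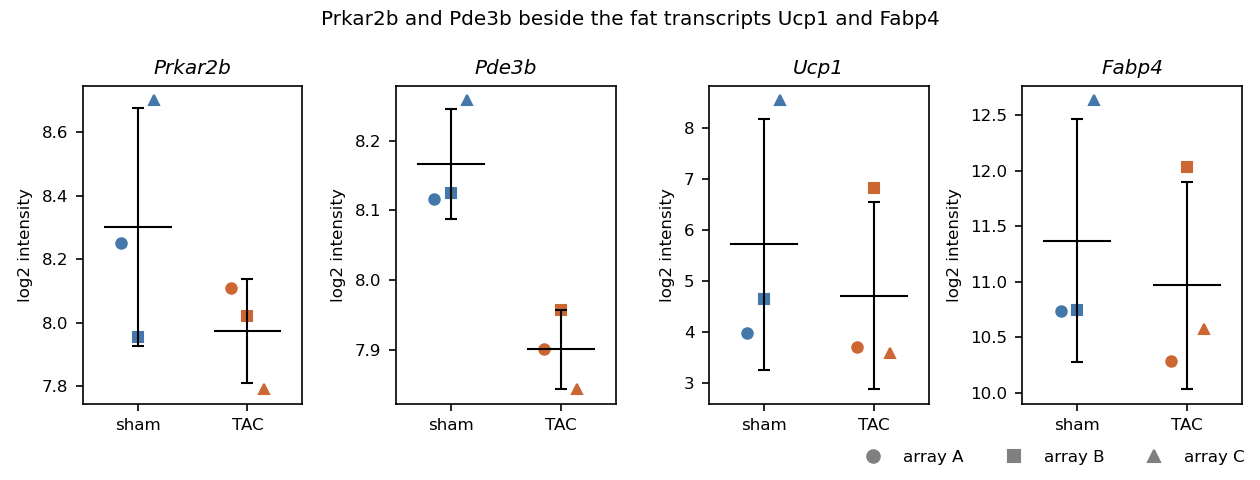
Log2 intensity of Prkar2b and Pde3b on each array beside Ucp1, a brown fat transcript, and Fabp4, a fatty acid binding protein of fat; circles, squares and triangles are arrays A, B and C, with group means and SD bars (3 arrays per group) and a scale of its own in each panel. Sham C is highest in all 4 panels; TAC B is the second highest array for Ucp1 and Fabp4 and lies below the sham arrays for Pde3b.

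Pde2a, stimulated by cGMP and common in neurons, measured 9.22, 9.71 and 9.40 in sham and 9.28, 8.81 and 9.22 in TAC. Its difference was -0.34 (SE 0.18) with overlapping groups, -0.20 without TAC B and -0.21 without sham B. Its second tested probe set, at -0.14 (SE 0.08), had every TAC array below every sham array. Both probe sets were lowest on TAC B. Pde1b, activated by calcium and calmodulin, was at -0.32 (SE 0.22), and it measured 6.17 on TAC B against at least 6.70 on the other arrays. Without TAC B it was at -0.10. Its relative Pde1a was at 0.13 (SE 0.25), and TAC B was its highest array, at 5.18 against at most 4.56, without which it was at -0.16. Pde10a, best known from striatal neurons, was at 0.23 (SE 0.14), with further probe sets at 0.07 and 0.22, and Pde3a, a form of heart and vessel, at 0.03 (SE 0.20). Pde10a was at 0.10 without sham B, its lowest array, at 0.13 without TAC A, its highest, and at 0.39 once the muscle score was a covariate (limma unadjusted p = 0.0055). Adcy3, Prkar1a, Pde12 and Pde4dip also had an unadjusted p under 0.05 with that covariate. The smallest adjusted p of the members was then 0.47 by limma.

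Of the phosphodiesterases specific for cAMP, 5 of 7 genes were tested, and their differences lay between -0.00 and 0.11. Pde4d, a major neuronal and cardiac form, measured 9.09, 9.09 and 8.90 in sham and 9.04, 8.998 and 9.03 in TAC, a difference of -0.00 with a 95% confidence interval of -0.21 to 0.20. Pde4b, another form of neurons and immune cells, differed by 0.02 (SE 0.08) on its brightest probe set. A second one measured 8.13, 7.82 and 7.88 in sham and 8.27, 8.13 and 8.36 in TAC, a difference of 0.31 (SE 0.11) with groups apart by less than 0.01 and a limma unadjusted p of 0.031 (adjusted p = 0.542). The 2 probe sets of Pde4b therefore did not give the same difference. For the second one the limma unadjusted p was 0.090 without sham B, 0.089 without sham C, 0.076 without TAC A and 0.098 without TAC C. Without sham A it was 0.010 and without TAC B 0.023. Pde7a was at 0.03, Pde7b at 0.11 (0.00 without TAC A) and Pde8a at 0.02. Further probe sets of Pde7a were at 0.02, -0.02 and 0.33, the last low only on sham C. Pde4a and Pde8b were dim.

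Of the cGMP phosphodiesterases only Pde9a, which has a high affinity for cGMP, was tested, at 0.04 (SE 0.10). Pde5a, the target of sildenafil, and the photoreceptor subunits Pde6a, Pde6b, Pde6c, Pde6g and Pde6h were dim, as were Pde1c and Pde11a of the dual families. The symbol rule also took in 3 genes that encode no cyclic nucleotide phosphodiesterase. Pde6d, a carrier of prenylated proteins, measured 8.59, 8.72 and 8.71 in sham and 8.59, 8.47 and 8.56 in TAC, a difference of -0.13 (SE 0.08) with groups apart by less than 0.01. Pde12, a mitochondrial enzyme that trims RNA tails, was at 0.34 (SE 0.16), and its sham B value, 6.91, was the lowest. Without sham B it was at 0.17. Pde4dip, or myomegalin, a protein of the Golgi and centrosome, was at 0.14 (SE 0.16) and -0.03 on its 2 tested probe sets, and its brightest probe set was at -0.04 without sham B.

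A-kinase anchoring proteins fix PKA beside its targets. Of 16 genes, 11 were tested, with 9 higher and 2 lower means, a median difference of 0.09 and a range of -0.02 to 0.23. Akap11, which binds PKA and the phosphatase PP1 and is linked to the turnover of type I PKA by autophagy, measured 11.02, 11.12 and 11.03 in sham and 11.28, 11.18 and 11.30 in TAC. The groups were apart by 0.06, and the difference was 0.20 (SE 0.08) with a limma unadjusted p of 0.040 and an adjusted p of 0.546. Akap8, a nuclear anchoring protein, measured 6.99, 6.83 and 6.87 in sham and 7.37, 7.03 and 6.996 in TAC, a difference of 0.23 (SE 0.12) that was 0.12 without TAC A. Its second probe set, at 0.33 (SE 0.31), was highest on TAC B instead.

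Akap13, a large anchoring protein, measured 9.54, 9.58 and 9.59 in sham and 9.60, 9.74 and 9.63 in TAC, apart by 0.01 with a difference of 0.09 (SE 0.08), which was 0.045 without TAC B and 0.04 with equal array medians. Akap10, which also carries a domain related to regulators of G-protein signalling, measured 5.91, 5.91 and 5.92 in sham and 5.89, 5.89 and 5.90 in TAC. Its 6 arrays spanned only 0.03, the narrowest range of the members, against a median of 0.44 and 1.02 for Pde1b. The groups did not overlap although the difference was only -0.02 (SE 0.07).

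The remaining anchoring proteins had groups that overlapped. Akap12, the scaffold gravin, was at -0.02 (SE 0.09), Akap6, which sits at the nuclear envelope of muscle and neurons, at 0.06 (SE 0.10), and Akap7, a small membrane-bound form, at 0.03 (SE 0.11). Akap9, of the Golgi and centrosome, was at 0.10 (SE 0.13), with further probe sets at -0.05 and -0.47, the latter low on TAC B. Akap2 was at 0.10, Akap8l at 0.09 and Akap17b at 0.04. Single arrays set the sign of some of these: Akap2 was at -0.01 without sham B and Akap8l at -0.02 without sham A. Akap9 was at 0.02 without sham B. Akap1, the anchor of the outer mitochondrial membrane, missed the floor narrowly with a mean of 3.95. Akap5, a postsynaptic anchor, and Akap3, Akap4 and Akap14, known from sperm or other ciliated cells, were dim as well.

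Probe sets of 1 gene did not always point one way. Of 18 such genes, with 47 tested probe sets, all probe sets had the same sign in 11. Among all 69 tested member probe sets, 9 with higher and 1 with a lower mean had an unadjusted p under 0.05, where the share of all tested probe sets was 9.08% (6.03% higher and 3.05% lower). On 12 the TAC arrays lay wholly above and on 5 wholly below the sham arrays, against 9.02% and 8.85%. Over all tested probe sets 56.1% had a higher mean after TAC. Values around the floor were close to each other. Pde6g at 3.99, Akap1 at 3.95 and Pde8b at 3.90 were left out, and Pde3a at 4.32, Pde1a at 4.53 and Akap8l at 4.93 were kept. Of the 79 dim member probe sets, 65 had lower means after TAC, or 82.3%, as did 87.0% of all dim probe sets, with a median span over the 6 arrays of 0.12. At such levels GCRMA values carry mostly background, and no expression difference was read from them.

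The genes around this module were taken from 6 lists of the cAMP pathway. Of 52 genes listed, 42 had a named probe set and 28 were tested; limma called 0 of the 28, with 1 higher and 2 lower at an unadjusted p under 0.05, against 8.76% of all tested genes. The median difference was 0.06. Pkib, an inhibitor peptide that binds free PKA catalytic subunits, measured 5.71, 4.04 and 5.94 in sham and 6.11, 6.74 and 6.48 in TAC. Its groups did not overlap, and the difference of 1.21 (SE 0.50; limma adjusted p = 0.548) was 0.62 without sham B, its lowest array. The limma unadjusted p of Pkib was 0.048. Leaving out sham A gave 0.051, TAC A 0.063, TAC B 0.13 and TAC C 0.105. Leaving out sham B gave 0.026 and sham C 0.025. The related Pkia and Pkig were at -0.02 (SE 0.17) and 0.08 (SE 0.11) on their brightest probe sets. A second probe set of each was at 0.32 (SE 0.22) and -0.07 (SE 0.11).

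Creb1, the transcription factor that PKA phosphorylates, measured 9.12, 9.22 and 9.14 in sham and 9.03, 8.82 and 8.87 in TAC. Every TAC array lay below every sham array, with a difference of -0.25 (SE 0.09), a limma unadjusted p of 0.025 and an adjusted p of 0.542. The unadjusted p was 0.067 without sham B, 0.054 without sham C, 0.062 without TAC B and 0.075 without TAC C. Its second tested probe set was at -0.17 (SE 0.08), also with separate groups. Crem, a related factor, was at 0.13 (SE 0.21), with a second tested probe set at 0.68 (SE 0.50). The brightest probe sets of the CREB coactivators Crtc1, Crtc2, Crtc3, Crebbp and Ep300 lay between 0.03 and 0.14. Other tested probe sets of Crebbp were at 0.30 (SE 0.14) and -0.21 (SE 0.14), and that of Crtc2 was at -0.10 (SE 0.13).

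Gnas, which encodes the stimulatory G protein of adenylyl cyclase, measured 14.55, 14.84 and 14.63 in sham and 14.68, 14.62 and 14.72 in TAC, a difference of 0.00 (SE 0.10). The 7 G protein genes lay between -0.14 for Gnai2 and 0.11 for Gnal, and 0 of them had an unadjusted p under 0.05 by limma. Among other proteins that bind cAMP, Popdc3 was at -0.19 (SE 0.08; limma unadjusted p = 0.048, and 0.13 without TAC A), Hcn3 at -0.17 (SE 0.08) and Hcn2 at -0.02 (SE 0.09), while the exchange factor Rapgef3 was dim. Of the receptors that act through the stimulatory G protein, 12 of 18 had a named probe set and 3 were tested, the PACAP receptor Adcyap1r1 at -0.07, Ptger4 at 0.11 and Calcrl at 0.26.

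**Figure D5:**
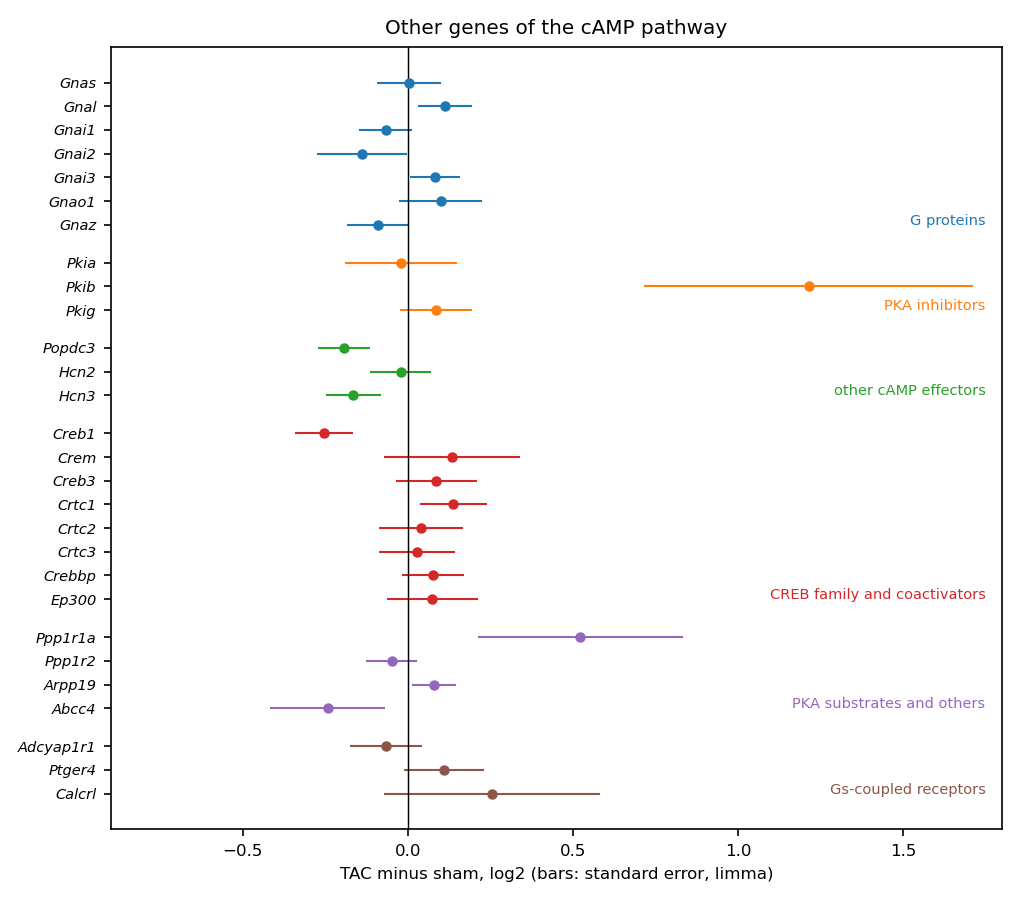
TAC minus sham difference in log2 units, with limma's standard error, of the 28 tested genes from 6 lists of the cAMP pathway, coloured by list. Pkib stands furthest to the right, at 1.21 with the longest bar, and Creb1 furthest to the left, at -0.25.

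CREB binds the cAMP response element, TGACGTCA, or the shorter motif TGACGT, and PKA activates CREB. The promoters were searched for these letters, a search chosen after the values were seen, on both strands in the 250 bases before each RefSeq start (GRCm38.p6). Of the 57 genes, 46 had a start in that table, with 89 windows. Adcy6, Adcy8, Akap12, Akap2, Pde3a, Pde3b, Pde6a, Pde6c, Pde6g, Pde7a and Pde9a had none. The full element was found in 1 of 89 windows, or 1.12%, against 1.55% of 32851 windows of all genes, and the shorter motif, which the full element contains, in 5, or 5.62%, against 6.47%. The 30 bases around each match are given 5′ to 3′ along the gene, with the match in capitals; ACGTCA is the shorter motif read on the other strand.
Prkar1a: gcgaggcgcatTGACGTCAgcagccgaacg
Akap11: gaagcgcgcaagACGTCAgccgagagttcg
Adcy9: cggacccggcggTGACGTgcgcgggccgcg
Pde4b: tgatttggctgcACGTCAattttctcatct
Pde4a: tggcacagctcgACGTCAggctggggagga
The Prkar1a match, at chr11:109650889-109650918 on the plus strand, held the full element 41 bases before a start. That of Akap11 lay at chr14:78537065-78537094 on the minus strand, that of Adcy9 at chr16:4420505-4420534 on the minus strand, that of Pde4b at chr4:102421508-102421537 and that of Pde4a at chr9:21184038-21184067, both on the plus strand. Prkar1a and Akap11 were among the 5 members with higher means and an unadjusted p under 0.05. Adcy9 and Pde4b did not reach it on their brightest probe sets, and Pde4a was dim. A second probe set of Pde4b had an unadjusted p of 0.031 by limma. The matches describe letters in these windows and were not linked to binding.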

How the data were processed

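Intensities on a linear scale, 1 per probe set and array, were deposited by the authors, who used GCRMA per the submitters' processing notes; GCRMA corrects background by probe sequence, normalizes between arrays and summarises probes. No version of it is stated in the sources used here. GCRMA compresses values near background, and gives no detection call. Here log2 was taken with no pseudocount, 64 control probe sets were set aside, and the 17550 probe sets with a mean log2 of at least 4 over the 6 arrays were fitted with limma 3.58.1 in R 4.3.3 (lmFit, eBayes, two-sided, Benjamini-Hochberg over all of them). A gene is represented by its brightest probe set. Symbols came from GEO's platform annotation, and 56 of 57 members matched the RefSeq table by identifier. Named in full were members with an unadjusted p under 0.05 or groups that did not overlap, and all tested cyclase and PKA genes. The members, lists and tests were chosen with earlier results of these data known. Each array is 1 animal; with 3 per group, the number of arrays sets the precision. The test was checked on simulated data with independent noise and planted differences of 0.58, 1 and 2. It called 34.9%, 84.9% and 98.5% of these. Differences as small as those of the members' brightest probe sets were not planted. The muscle and brown fat scores are the mean centred log2 values of the markers above the floor in those lists. Alternatives covered the floor, variance model, array weights, normalization, a pseudocount, probe set averaging, the title letter as a block, covariates and arrays left out. Figures were drawn with matplotlib 3.10.9.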

Additional observations from a re-analysis of the deposited data

How the results depend on the processing

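Under all 18 alternatives, 0 member genes passed after adjustment. The 11 members with an unadjusted p under 0.05 or separate groups kept their direction wherever they were fitted. All 11 had separate groups, so leaving arrays out could not change their direction, and no support is drawn from it. Adcy5 and Akap10 lie under the floor of 6 and were fitted in 17. The count at an unadjusted p under 0.05, 6 in the analysis reported, was 15 with no floor, with 10 of them lower, mostly dim genes, 2 with equal array medians, 3 with the replicate block and 2 without sham C and TAC B. With 1 array left out it was 1 to 7: 1 without TAC C (Prkar1a), 2 without sham C (Adcy3 and Prkar1a). The count of members with separate groups, 11 as reported, was 22 with no floor, 7 with equal array medians, 17 without sham C and TAC B and 13 to 17 with 1 array left out, where fewer arrays need to separate. With no floor this count takes in dim genes, and 71.6% of all dim probe sets had every TAC array below every sham array. The cause of the other changes was not tested. For both counts the shares of all tested genes under these settings are not given here. Whether the changes are particular to the members therefore cannot be read. The median difference stayed between 0.01 and 0.10. Of the 18 alternatives, Adcy3 had an unadjusted p under 0.05 in 17, Pde3b and Prkar1a in 15, Adcy1 and Prkacb in 9 and Akap11 in 8. Of the 29 other members, whose groups overlapped, up to 11 changed sign, without sham B. Deviations of same-lettered arrays had correlations of 0.0841, -0.00308 and -0.166, and those of differently lettered arrays ran from -0.133 to 0.139. With 3 arrays per group these values cannot show whether the letters pair the animals.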
